A study of Homo sapiens with 21 samples.

Results

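The ADAM and ADAMTS metalloproteases were followed in HMLE, a well-known immortalized cell line from human mammary epithelium, during treatment with TGFβ, the cytokine used here to induce epithelial-to-mesenchymal transition (EMT). The 9 genes (*ADAM9*, *ADAM10*, *ADAM12*, *ADAM17*, *ADAM19*, *ADAMTS1*, *ADAMTS5*, *ADAMTS6* and *ADAMTS12*) were chosen by symbol, with earlier results of these data known. They are 9 of 23201 genes in the table and 9 of its 41 numbered ADAM and ADAMTS symbols. Counts and medians given for them thus describe these genes only. The study asked how the transcriptome moves through EMT, and sequenced total RNA of untreated cells (d0) and of cells treated with TGFβ for 1, 4, 7, 10, 15 or 20 days (d1 to d20), with 3 libraries at each of 7 timepoints and 21 in all. No group carried another genetic change or agent in the labels, and the TGFβ dose was not given in the sources used here. All groups were 1 cell line, seeded at 1 density, and every treated day was compared with the same 3 untreated libraries, so the 6 comparisons share their control. Untreated cells were sampled only at d0, so treatment and time in culture cannot be told apart.

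Both families hold zinc-dependent metalloproteases with a disintegrin-like domain. The ADAMs are mostly anchored in the membrane and cut the outer part of other membrane proteins from the cell surface, a step called shedding, which releases EGF-like ligands and starts Notch signalling. The ADAMTS enzymes lack the membrane anchor, are secreted, carry thrombospondin repeats that bind matrix, and cut proteoglycans such as versican and aggrecan. Both are made as inactive precursors that proprotein convertases such as furin process, and tissue inhibitors of metalloproteinases (TIMPs) restrain them.

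The values are normalized read counts: whole reads divided by 1 size factor per library. The libraries held between 18847917 and 22667754 reads, and at most 3 reads in a library, a value of 2.55 to 3.18, was treated as the floor, which covers counting error only. The labelled cell type was checked against markers. The basal keratins *KRT5*, *KRT14* and *KRT17* lay between 100457 and 298352, between 67566 and 194493 and between 12669 and 191369 over all libraries, while the leukocyte genes *PTPRC* and *CD3E* were at the floor throughout. *CD68*, a macrophage marker, lay between 342 and 818, the summed endothelial list between 29.2 and 291, and the summed adipocyte list between 6.51 and 40.4. *SMAD7*, *SKIL* and *FN1*, taken as a check of the TGFβ response, were higher than at d0 on all 6 days. The third listed d7 library stood apart, with a root mean square log2 difference of 0.47 and 0.46 from the other libraries of that day, against 0.21 to 0.24 for every other pair of libraries of 1 timepoint, so the d7 differences of the 8 tested genes are also given without it. The study calls the 3 libraries of a day biological triplicates, without saying in the sources used here whether they came from separate cultures, so the p-values measure the spread between these libraries, which may be technical. In these bulk libraries, fewer cells with a transcript and less of it per cell cannot be told apart.

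Upstream sequence was available for 6 of the 9 genes in the set of RefSeq promoters used here, which had no entry for *ADAM9*, *ADAMTS1* and *ADAMTS5*. For each gene the first listed entry was used. The 250 bases before the start of *ADAM12*, *ADAM19* and *ADAMTS6* are shown with those of *ADAM17*. From d7 on, *ADAM12*, *ADAM19* and *ADAMTS6* moved in the same direction at each step, and *ADAM17* did not move with them. From d1 to d4 *ADAM19* differed by 0.37 on the log2 scale, where *ADAM12* differed by -1.96 and *ADAMTS6* by -0.93. Capitals mark matches on either strand to the SMAD box CAGAC (38.0% of 35116 promoters of this length hold it), the AP-1 site TGANTCA (6.6%), the E-box CACCTG bound by ZEB and SNAI factors (17.5%) and the TEAD site GGAATG (11.9%). The coordinates are those of GRCh38.p14, not of the hg19 build named for the deposited values.
ADAM12, chr10:126388478-126388727, minus strand: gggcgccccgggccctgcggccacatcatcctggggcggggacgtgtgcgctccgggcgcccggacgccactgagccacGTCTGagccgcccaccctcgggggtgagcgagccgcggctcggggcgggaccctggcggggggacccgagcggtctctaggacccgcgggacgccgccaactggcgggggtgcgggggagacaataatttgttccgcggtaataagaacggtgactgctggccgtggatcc
ADAM19, chr5:157575776-157576025, minus strand: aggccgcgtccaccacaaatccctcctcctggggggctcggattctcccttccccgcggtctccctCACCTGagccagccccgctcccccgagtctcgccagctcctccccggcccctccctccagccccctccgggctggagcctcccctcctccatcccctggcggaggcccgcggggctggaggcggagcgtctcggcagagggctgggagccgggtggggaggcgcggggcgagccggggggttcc
ADAMTS6, chr5:65481921-65482170, minus strand: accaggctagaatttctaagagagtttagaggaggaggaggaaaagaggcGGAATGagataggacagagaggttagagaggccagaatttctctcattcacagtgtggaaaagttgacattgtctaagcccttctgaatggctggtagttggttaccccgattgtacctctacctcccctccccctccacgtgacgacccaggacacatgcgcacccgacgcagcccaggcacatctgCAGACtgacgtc
ADAM17, chr2:9555831-9556080, minus strand: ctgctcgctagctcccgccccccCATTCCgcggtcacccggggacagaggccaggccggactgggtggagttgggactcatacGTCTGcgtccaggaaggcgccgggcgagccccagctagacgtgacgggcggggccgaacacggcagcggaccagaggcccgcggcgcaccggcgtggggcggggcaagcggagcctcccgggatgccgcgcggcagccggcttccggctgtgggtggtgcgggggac
Matches to the SMAD box stood in the windows of *ADAM12*, *ADAMTS6* and *ADAM17*, and in that of *ADAM10*. *ADAM19* held no SMAD box and 1 E-box, *ADAMTS6* and *ADAM17* each held 1 TEAD site, and *ADAMTS12*, whose window is not printed, held 1 AP-1 and 1 TEAD site. No match overlapped a match to another motif. A match describes letters only, not binding.

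Of the 9 genes, 8 passed the filter of a mean value of at least 10. *ADAMTS5*, a major aggrecanase of cartilage, did not: it had 7 reads in all, at most 2 in any library, with reads in 6 of the 21 libraries and none in the untreated ones. It was at the floor throughout, so no difference was detectable at this depth.

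Against untreated cells, 7 of the 8 tested genes passed the test as higher on each of the 6 days (*ADAM9*, *ADAM10*, *ADAM12*, *ADAM19*, *ADAMTS1*, *ADAMTS6* and *ADAMTS12*; limma, adjusted p under 0.05). Of all 13343 genes tested, the share higher than at d0 was 31.3% (d1), 36.9% (d4), 34.6% (d7), 37.0% (d10), 39.2% (d15) and 32.5% (d20). The eighth gene, *ADAM17*, was lower at d4 and d10 and did not pass the test on the other 4 days. Of all genes, the share that fell was 28.5% (d1), 35.3% (d4), 32.6% (d7), 30.7% (d10), 37.3% (d15) and 30.2% (d20). Rescaling all libraries to equal totals, which moved the median of all genes by -0.14 to -0.20, left 5 to 7 of these genes higher. It called *ADAM17* lower on all 6 days and *ADAM9* lower at d4 and d7. With a 2-fold change also required, *ADAM12*, *ADAM19*, *ADAMTS1*, *ADAMTS6* and *ADAMTS12* were higher at d1, d4, d7, d10 and d20, 5 of 8 genes each day, and at d15 the first and the last of these dropped out, leaving 3 of 8. *ADAMTS12* met this rule narrowly at d1, d4 and d7: without the third listed d0 library its differences were 0.71, 0.73 and 0.66, and 4 of 8 genes remained on each of these days, as at d7 without the third listed d7 library (0.79). The share of all genes passing this rule was 6.47% (d1), 9.68% (d4), 8.79% (d7), 6.94% (d10), 11.7% (d15) and 7.51% (d20). The median log2 difference of the 8 genes was 2.13 (d1), 1.69 (d4), 1.5 (d7), 3.26 (d10), 0.79 (d15) and 3.48 (d20), and the median over all genes was between 0.00 and 0.03. The split of *ADAM9*, *ADAM10* and *ADAM17* from the other 5 genes is visible in the plot of every library.

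**Figure D1:**
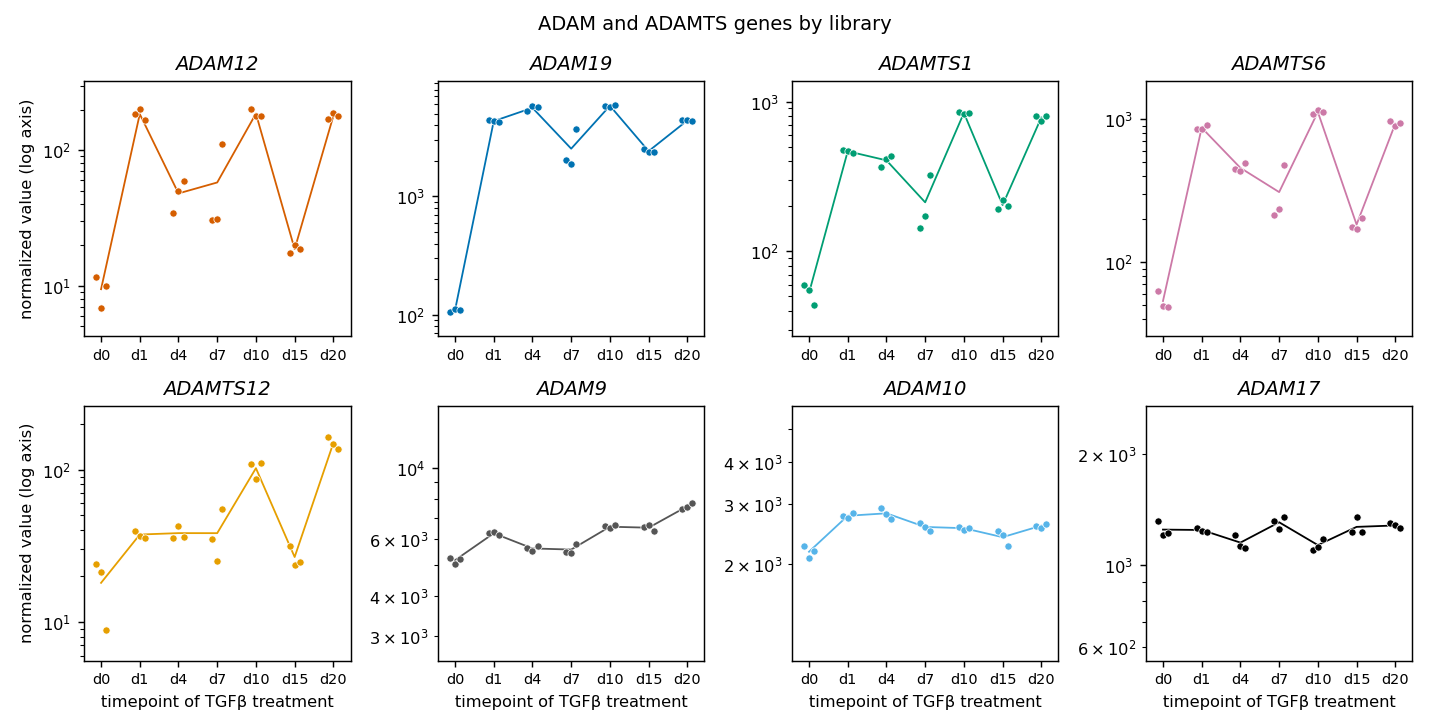
Normalized value (log axis) of the 8 tested genes at each timepoint; points are the 3 libraries and lines join the means. *ADAM12*, *ADAM19*, *ADAMTS1*, *ADAMTS6* and *ADAMTS12* rose at d1, fell from d10 to d15 and rose again to d20, while *ADAM9*, *ADAM10* and *ADAM17* differed from d0 by less than 1.5-fold.

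Among the sheddases, *ADAM10*, the main protease of Notch receptors and N-cadherin, rose early and by little. Its values were 2252, 2076 and 2192 at d0, 2772, 2724 and 2826 at d1, and 2927, 2815 and 2720.2 at d4. The later means were 2572 ± 75.8 (d7; SD, n = 3), 2550.1 ± 32 (d10), 2399 ± 126 (d15) and 2594 ± 36.4 (d20). Every treated library lay above every untreated one, by a narrow margin at d15, where the lowest library was at 2259. The log2 difference from d0 was largest at d4 (0.38, SE 0.04, adjusted p = 4.48e-08), 0.14 at d15 (adjusted p = 0.0036) and 0.26 at d20 (adjusted p = 1.37e-05), but the call was lost on 4 of the 6 days with equal library totals: it stood at 0.05 (adjusted p = 0.248) for d7, 0.0041 (adjusted p = 0.933) for d10, -0.017 (adjusted p = 0.702) for d15 and 0.06 (adjusted p = 0.215) for d20. With quantile normalization it was 0.04 at d10 (adjusted p = 0.354). In the order of its levels, d4, d1, d20, d7, d10, d15 and d0, the only neighbours that differed past the threshold were d15 and d0.

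*ADAM9*, a widely expressed membrane sheddase, was highest at the end of the time course. Its values were 5261, 5037 and 5188 at d0 and 7434, 7544 and 7783 at d20, with no overlap. Between them the means were 6257 ± 88.7 (d1; SD, n = 3), 5614 ± 94.9 (d4), 5569.6 ± 188 (d7), 6558 ± 74.3 (d10) and 6511 ± 138 (d15). The rise at d20 was 1.47-fold (log2 0.56, SE 0.03, adjusted p = 2.13e-12), and d20 stood above d10, its nearest neighbour in level, by 0.21 (adjusted p = 2.36e-05). The smaller differences of 0.12 at d4 and 0.11 at d7 turned to -0.076 and -0.082 with equal library totals. Both were then past the threshold as lower (adjusted p = 0.0466 and 0.0342). With quantile normalization the calls were lost, at 0.0063 for d4 (adjusted p = 0.859) and 0.045 for d7 (adjusted p = 0.194). The d7 call was also lost with only the compared timepoints in the fit (adjusted p = 0.0992). *ADAM9* overlaps *TM2D2*, and the strand setting of the counting was not given in the sources used here, so reads may have been shared. *TM2D2* rose by 0.56 on the log2 scale at d20 too, and fell by 0.51 from d10 to d15, when *ADAM9* differed by -0.01 (adjusted p = 0.771), or by 0.18 with quantile normalization (adjusted p = 1.86e-05). The part of shared reads in the *ADAM9* values was not tested.

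*ADAM17*, the protease that frees TNF and many EGF receptor ligands, differed from d0 past the threshold on 2 of 6 days. Its values were 1314, 1210.4 and 1222 at d0 and 1302, 1282 and 1260.2 at d20. The groups overlapped, and the log2 difference was 0.04 with a 95% interval of -0.06 to 0.14 (adjusted p = 0.497), and with equal library totals it turned to -0.16 (adjusted p = 0.00562). Both calls against d0 were small: -0.12 at d4 (adjusted p = 0.0315) and -0.14 at d10 (adjusted p = 0.0131), and both were lost when the first listed d0 library was left out (-0.08 and -0.10, adjusted p = 0.169 and 0.0871). *ADAM17* overlaps *IAH1*, which was higher at d20 by 0.28, and reads shared between them cannot be told apart either.

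*ADAM19*, also known as meltrin beta, a protease that can release neuregulins, had the largest difference of the 8 genes on every day. Its values were 106, 113 and 109.8 at d0, 4408, 4328 and 4249 at d1, and 5288, 5826 and 5702 at d4. They were 2029, 1886 and 3680.1 at d7 and 5859, 5745 and 5898 at d10. Then came 2500.3, 2365 and 2377 at d15 and 4387, 4409.8 and 4360.4 at d20. All 18 treated libraries lay far above the untreated ones, with dips at d7 and d15. On the log2(value + 1) scale the difference was 5.29 at d1 (SE 0.14, 39.2-fold, adjusted p = 3.09e-18) and 5.72 at d10 (52.8-fold, adjusted p = 6.14e-19). This placed *ADAM19* at rank 13 of 13343 genes by increase at d1 and at rank 34 at d20, where the difference was 5.31 (39.7-fold, adjusted p = 2.11e-18). In the order of its levels d10 and d4 (adjusted p = 0.715), d20 and d1 (adjusted p = 0.926), and d7 and d15 (adjusted p = 0.997) did not differ past the threshold, and d0 was lowest.

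*ADAM12*, or meltrin alpha, a protease of HB-EGF and of insulin-like growth factor binding proteins, was low before treatment and changed at 4 of the 5 steps between treated days. Its values were 11.6, 6.79 and 9.89 at d0, 186, 203 and 167 at d1, and 34.7, 49.7 and 59.7 at d4. They were 30.6, 31.3 and 112 at d7 and 202, 179 and 179 at d10. The last days gave 17.3, 19.9 and 18.65 (d15) and 172, 187 and 179 (d20). The libraries of d1, d10 and d20 overlapped and stood above all others, those of d15 were the lowest of the treated days, and at d7 the third listed library stood above the others. The rise was 18.2-fold at d1 (log2 4.18, SE 0.32, adjusted p = 2.67e-10), 18.3-fold at d10 and 17.7-fold at d20 (log2 4.20 and 4.14). At d15 the difference was 0.94 (SE 0.32, adjusted p = 0.011) at 17 to 22 reads a library. That call was lost with a pseudocount of 10 (adjusted p = 0.0579), quantile normalization (adjusted p = 0.0949), edgeR (adjusted p = 0.122) and without the second listed d0 library (adjusted p = 0.0625), although the d15 and d0 libraries did not overlap.

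**Figure D2:**
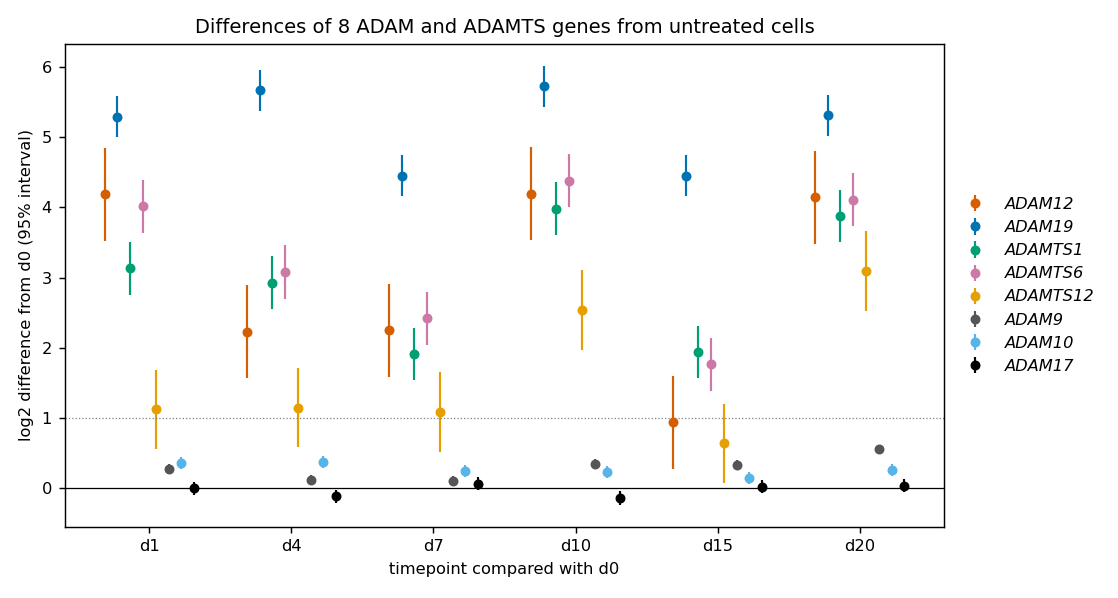
The log2 difference from d0 (vertical axis, with 95% intervals) of the 8 tested genes on each treated day; the dotted line marks a 2-fold increase. *ADAM19* was highest on every day, from 4.45 to 5.72, and *ADAM9*, *ADAM10* and *ADAM17* lay below 0.6 throughout.

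Of the secreted proteases, *ADAMTS1*, which cuts versican and aggrecan, had values of 59.6, 55.1 and 43.5 at d0, 477, 469.7 and 451 at d1, and 365, 416 and 435 at d4. They were 142, 172 and 323 at d7 and 857, 829.9 and 833 at d10. The last days gave 193, 219 and 199.9 (d15) and 805, 744 and 799 (d20). No treated library overlapped the untreated ones, and d10 and d20 stood above all other days. The rise was 8.75-fold at d1 (log2 3.13, SE 0.18, adjusted p = 2.38e-12), 15.8-fold at d10 (log2 3.98) and 14.7-fold at d20 (log2 3.88). The levels at d10 and d20 did not differ past the threshold (adjusted p = 0.67), nor did those at d15 and d7 (adjusted p = 0.9).

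*ADAMTS6*, a relative of the fibrillin-binding *ADAMTS10*, had its highest means at d10, d20 and d1. Its values were 62.3, 49.2 and 48.5 at d0, 847, 851 and 915 at d1, and 445, 433 and 489.6 at d4. They were 212, 234 and 480.3 at d7 and 1088, 1156 and 1126 at d10. At d15 they were 175, 171 and 202, and by d20 967, 889 and 935. Again every treated library exceeded every untreated one, and d15 was the lowest treated day. From d1 to d4 it fell by 0.93 (adjusted p = 0.000142), where *ADAMTS1* differed by -0.20 (adjusted p = 0.33). From d1 to d10 it differed by 0.37 (adjusted p = 0.13), where *ADAMTS1* rose by 0.85 (adjusted p = 0.0011); whether the genes differed at these steps was not tested. The rise was 16.1-fold at d1 (log2 4.01, SE 0.18, adjusted p = 4.36e-14), 20.8-fold at d10 (log2 4.38) and 17.2-fold at d20 (log2 4.11), and the levels at d10 and d20 did not differ past the threshold (adjusted p = 0.234). Nor did those at d20 and d1, whose libraries overlapped (0.09, adjusted p = 0.709).

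*ADAMTS12*, a protease of cartilage oligomeric matrix protein, rose most at d10 and d20. Its values were 24.0, 21.2 and 8.90 at d0, 39.8, 36.9 and 35.7 at d1, and 35.8, 42.8 and 36.2 at d4. They were 34.8, 25.0 and 54.9 at d7 and 109, 86.5 and 110.5 at d10. At d15 they were 31.6, 23.5 and 24.9, and by d20 164, 147 and 137. Only d10 and d20 stood clear of the other days. The difference was 1.12 at d1 (SE 0.27, adjusted p = 0.00133), 2.54 at d10 (adjusted p = 4.55e-08) and 3.09 at d20 (8.51-fold, adjusted p = 2.48e-09). At d15 the libraries overlapped with d0 and the difference was 0.64 (adjusted p = 0.0393), a call lost under all 7 other scalings, filters and tools (adjusted p from 0.0521 to 0.2). It was also lost without the third listed d0 library (0.22, adjusted p = 0.395), without the first listed d15 library (adjusted p = 0.138) and without the third (adjusted p = 0.0566).

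The days on which these 5 genes were high and low alternated from d7 onward. From d7 to d10 *ADAM12* rose by 1.95, *ADAMTS1* by 2.07, *ADAMTS6* by 1.96, *ADAMTS12* by 1.46 and *ADAM19* by 1.27 on the log2 scale (the largest adjusted p = 6.86e-05). From d10 to d15 the differences were -3.26, -2.04, -2.62, -1.90 and -1.27 in the same order (the largest adjusted p = 1.74e-06). From d15 to d20 they were 3.20, 1.94, 2.34, 2.45 and 0.86 (the largest adjusted p = 1.07e-05). *ADAM12*, *ADAMTS1*, *ADAMTS6* and *ADAMTS12* changed at least 2-fold at all 3 steps, 4 of 8 genes, under a rule written after their values were seen, which 1.9% of all genes tested met (253 genes). *ADAM9* moved by 0.24, -0.01 and 0.22 and *ADAM10* by -0.01, -0.09 and 0.11 at these steps. *ADAM17* fell by 0.20, rose by 0.16 (adjusted p = 0.00352) and then differed by 0.01 (adjusted p = 0.796).

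None of the TGFβ response genes *SMAD7*, *SKIL* and *FN1* fell past the threshold from d10 to d15. *SMAD7* differed by -0.43, 0.27 and -0.30 at the 3 steps and *SKIL* by -0.41, 0.22 and -0.27, all past the threshold. *SMAD7* and *SKIL*, both feedback inhibitors of TGFβ signalling, thus changed in the direction opposite to the 5 proteases at each step. *FN1*, fibronectin, differed by 0.14, -0.11 (adjusted p = 0.1) and 0.28. Proliferation genes did fall at d15: *MKI67* differed by 0.43, -1.78 and 1.88 and *TOP2A* by -0.31, -0.76 and 1.22, a pair named after their values were seen. Without the third listed d7 library the step from d7 to d10 was 0.68 for *MKI67*, -0.28 for *TOP2A* and 0.22 for *FN1*. *MKI67* values were 7210, 6834 and 11850 at d7, 11287.6 ± 408 (SD, n = 3) at d10, then 3291 ± 83.3 at d15 and finally 12122 ± 226. *MKI67* was also high at d0 (10671 ± 59.7), when the 5 proteases were at their lowest. The summed endothelial markers also changed at these steps, from 29.2 to 40.1 at d10 to 275 to 291 at d15, where *KDR* held most of the reads, and 38.9 to 69.5 at d20, with *CDH5* at the floor throughout. The summed adipocyte markers lay between 9.95 and 12.7 at d10, between 30.8 and 40.4 at d15, and between 7.84 and 12.6 at d20. *CD68* lay between 342 and 406 at d10, between 724 and 776 at d15 and between 624 and 668 at d20. Of the basal genes, *KRT17* changed by -3.17, 3.81 and -1.94 at the 3 steps, with *KRT5* at -1.20, 0.80 and -0.68, *KRT14* at -1.20, 0.80 and -0.38 and *TP63* at -0.79, 0.57 and -0.68, all opposite in sign to the 5 proteases. *ITGA6*, integrin alpha 6, went with the proteases, at 0.62, -0.88 and 0.47. The part of proliferation or of these markers in the protease levels was not tested.

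**Figure D3:**
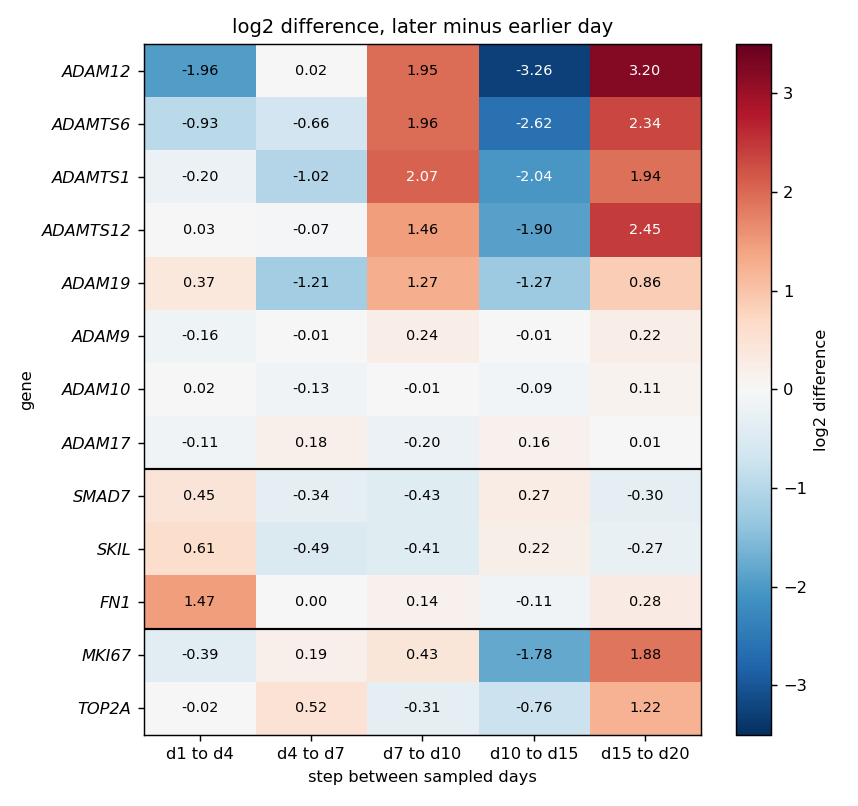
The log2 difference between each sampled day and the next (later minus earlier, columns) for the 8 proteases, 3 TGFβ response genes and 2 proliferation genes (rows); red is a rise and blue a fall. The upper 5 rows turn from red to blue to red over the last 3 steps, by 3.20 for *ADAM12* from d15 to d20, and *SMAD7* and *SKIL* turn the other way at each of these steps.

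The third listed d7 library was also high in these 5 genes. It held 112 for *ADAM12* where the other 2 libraries held 30.6 and 31.3, and the highest d7 value of *ADAM19*, *ADAMTS1*, *ADAMTS6* and *ADAMTS12*. *MKI67* was highest in it as well. Without this library the difference from d0 was 1.64 for *ADAM12* (2.25 with it), 4.15 for *ADAM19* (4.45), 1.56 for *ADAMTS1* (1.91), 2.05 for *ADAMTS6* (2.42) and 0.79 for *ADAMTS12* (1.08), and 7 genes were still higher. *ADAM9* was then at 0.08 (0.11 with it), *ADAM10* at 0.26 (0.24) and *ADAM17* at 0.04 (0.07, adjusted p = 0.42 without it). From d4 to d7 *ADAM12* then fell by 0.58 (adjusted p = 0.00868) instead of differing by 0.02 (adjusted p = 0.96), and the fall of *ADAMTS6* grew from -0.66 to -1.03. The rise from d7 to d10 was larger without it, for example 2.55 for *ADAM12*, and the same 4 genes met the rule of 3 alternating steps, as did 2.49% of all genes.

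Over the 21 libraries, Pearson's r on the log2 scale was 0.98 between *ADAMTS1* and *ADAMTS6*, 0.96 between *ADAM12* and *ADAMTS6* and 0.92 between *ADAM12* and *ADAMTS1*. *ADAM19* was at 0.91 with *ADAMTS1* and 0.92 with *SMAD7*, whereas *ADAM12* was at 0.52 and *ADAMTS12* at 0.37 with *SMAD7*. *ADAM17* lay between -0.30 and 0.09 with the other 7 genes. The libraries share timepoints and a common d0, so these values describe the time courses only. Among all genes outside the 9, those most like *ADAM12* were *TPM4* (0.98) and *KIAA0317* (0.98), and those most like *ADAMTS1* were *LPXN* (0.99) and *PODXL* (0.98). *ADAMTS6* was nearest to *LRRC8C* (0.99) and *SPHK1* (0.99), and *ADAMTS12* to *CD163L1* (0.94) and *COL8A1* (0.94). *ADAM9* was nearest to *ANKRD28* (0.95) and *TNFAIP6* (0.95), and *ADAM10* to *C1orf106* (0.93) and *FGD6* (0.93). *XYLT1* was at 0.99 with *ADAM19*, and *GBP1* at 0.78 with *ADAM17*.

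The other genes of both families were read from lists fixed by name. For these and the lists that follow, 32.5% of all genes tested were higher and 30.2% lower at d20. On the earlier days the shares were 31.3% to 39.2% higher and 28.5% to 37.3% lower. Of 16 other ADAM genes, 7 were tested and at d20 only *ADAM8*, a sheddase best known from leukocytes, was higher (1.2, adjusted p = 7.8e-05) and 0 were lower, with a median of -0.08. On the earlier days 0 to 2 were higher and 1 to 3 lower: *ADAM11*, *ADAM15* and *ADAM22* at d1 and d10, *ADAM15* and *ADAM21* at d4, *ADAM8* and *ADAM21* at d7 and *ADAM21* at d15. *ADAM8* itself was higher at d1 (1.45), d4 (1.19) and d10 (1.22) but lower at d7 (-0.88, adjusted p = 0.00152). Of 15 other ADAMTS genes, 6 were tested, and *ADAMTS15* (4.61), *ADAMTS14* (1.89), which processes procollagen, and *ADAMTS7* (1.79) were higher at d20, with 0 lower and a median of 1.16. *ADAMTS15*, a versican-cutting protease, had d0 values of 16, 9.33 and 14.8 and d20 values of 365, 349 and 315, with no overlap. From d7 on the steps of *ADAMTS15* had signs opposite to those of the 5 genes. It differed by -0.82 from d7 to d10, by 0.61 to d15 and by -0.71 to d20 (the largest adjusted p = 0.000481). *ADAMTS7* went the same way, at 2.76, 1.497, 2.99 and 1.79 against d0 at d7, d10, d15 and d20. So did *ADAMTS13*, at 1.06, -1.26, 0.84 and -0.06 on these days. *ADAMTS13* passed the test as lower at d1 and d10 and as higher at d4, d7 and d15. *ADAMTS14* (0.98, 0.67, 0.88 and 1.89) went with *ADAMTS15* up to d15 only. *ADAMTS3* and *ADAMTS4* went with the 5 genes, but neither passed the threshold against d0 on any day. Of the 7 ADAMTS-like genes, which lack the protease domain, 4 were tested, *THSD4* (1.14) and *PAPLN* (0.50) were higher and *ADAMTSL4* (-0.92) lower, with a median of 0.29.

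Of 5 inhibitors, 4 were tested, and 3 were higher at d20 with 0 lower and a median of 0.74: *TIMP2* (1.72), *RECK* (0.74), which encodes a membrane-anchored inhibitor, and *TIMP1* (0.73). *TIMP3*, which binds matrix and inhibits ADAM17 and several ADAMTS enzymes, was not past the threshold at d20 (0.04, adjusted p = 0.735). *TIMP3* was higher on every earlier treated day, by 1.13 (d1), 1.33 (d4), 1.69 (d7), 0.43 (d10, adjusted p = 0.00129) and 1.84 (d15, adjusted p = 9.73e-13). Its values were 7481, 7279 and 4609 at d7 and 2657, 2608 and 2639 at d10. At d15 they were 6976, 7139 and 6999.5, and by d20 1955, 2048 and 2059. From d7 on, *TIMP3* was high on the days when the 5 proteases were low, with steps of -1.26, 1.42 and -1.80 from d7 to d20 (the largest adjusted p = 1.39e-09), and in the third listed d7 library it was the lowest of that day. At d7, d10, d15 and d20 *TIMP2* differed from d0 by 1.68, 0.26, 2.48 and 1.72. *RECK* differed by 0.55, -0.02, 0.92 and 0.74, so both moved in the same directions as *TIMP3*. *TIMP1* moved with the proteases, at 0.29, 0.42, -0.02 and 0.73. Both tested convertases, of 4 listed, were higher at d20, *FURIN* by 0.53 and *PCSK7* by 0.46, with a median of 0.49. For inhibitors and convertases alike, the d20 shares of all genes were 32.5% higher and 30.2% lower.

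Of 9 partners of ADAM10 and ADAM17, all were tested, 5 were higher and 2 lower at d20, with a median of 0.26. The shares of all genes tested were 32.5% higher and 30.2% lower. *TSPAN5*, a tetraspanin that escorts ADAM10, rose by 1.75 on the log2 scale, *RHBDF2*, an iRhom that brings ADAM17 to the surface, by 1.11, and *TSPAN17* by 0.46. *TSPAN33* fell by 0.67 and *TSPAN14* by 0.35. On the earlier days 4 to 6 partners were higher and 1 to 3 lower. At d10 the median was 0.06, with 4 higher and 3 lower, against 37.0% and 30.7% of all genes tested. *TSPAN15* was lower at d1 (-0.36), d7 (-0.71), d10 (-0.97) and d15 (-0.81), and did not pass the threshold at d4 or d20.

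Among targets of shedding, 7 of 8 EGF-like ligands were tested. At d20, 4 were higher, led by *AREG*, amphiregulin (2.50), *EGF* (0.79) and *NRG1* (0.60), and 1, *EPGN*, lower (-0.77), with a median of 0.35. At d15, 1 was higher, *AREG* (3.25), and the other 6 were lower, with a median of -0.57. Of all genes tested, 39.2% were higher and 37.3% lower at d15, and 32.5% and 30.2% at d20. Of 19 other shed membrane proteins 18 were tested, with 13 higher and 3 lower at d20 and a median of 0.58. *CDH2*, N-cadherin and a substrate of ADAM10, rose by 6.05, from 9.79, 9.33 and 13.8 at d0 to 797, 798 and 751 at d20, followed by *L1CAM* (2.34) and *AXL* (1.78). *NOTCH3* fell by 3.04, *CDH1*, E-cadherin, by 1.33 and *IL6R* by 0.80.

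Of 15 matrix substrates of ADAMTS enzymes 12 were tested, and 11 were higher and 1 lower at d20, with a median of 4.33 that did not move when *ACAN* was set to its bound. *FN1* rose by 6.99 on the log2 scale. *COL1A2*, a collagen I chain, had 3, 3 and 4 reads at d0, close to the floor, and values of 748, 699.9 and 625 by d20. *ACAN*, aggrecan, had at most 1 read in any untreated library. Its values by d20 were 129, 135 and 154, or at least 51.1-fold higher against a floor of 3 reads in each untreated library. *VCAN*, versican, had 1, 4 and 1 reads at d0 and reached 243, 234 and 286 by d20. *BCAN*, brevican, fell by 1.68. The lists were chosen with earlier results known, and their counts describe them only.

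**Figure D4:**
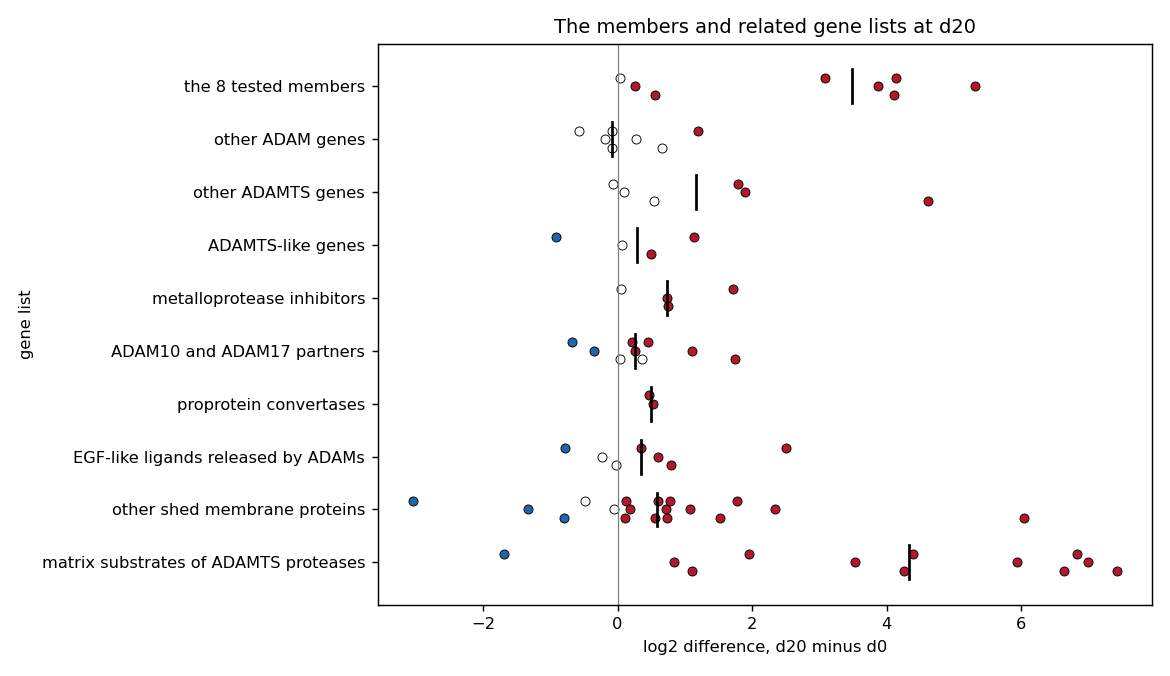
The log2 difference between d20 and d0 (horizontal axis) of the tested genes of each list (rows); red points were higher and blue points lower at an adjusted p under 0.05, white points did not pass, and bars are medians. The median was 3.48 for the 8 tested proteases, -0.08 for other ADAM genes and 4.33 for the matrix substrates.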

How the data were processed

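The authors deposited 1 normalized signal per gene and library, a read count divided by a size factor and rounded to 2 decimals. The submitters' processing notes name STAR 2.7, Salmon 1.4 and hg19, without roles. The annotation, the strand setting and the test were not given in the sources used here. Whole reads were recovered for 100% of values (tolerance 0.006), with 18847917 to 22667754 reads per library. Columns were matched to timepoints by header and carry no replicate numbers.

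The test ran on log2(value + 1) of the 13343 genes whose mean value was 10 or more, by limma 3.58.1 (R 4.3.3; lmFit, contrasts.fit, eBayes with trend), all 21 libraries in 1 fit, with Benjamini-Hochberg adjustment within each contrast and a threshold of 0.05. Folds are on the log2(value + 1) scale, which understates the change of low genes. Alternatives were a pseudocount of 10, no filter, equal library totals, quantile normalization, only the compared timepoints in the fit, edgeR 4.0.16 and DESeq2 1.42.0 on the recovered reads, a 2-fold minimum, and each library left out, which for the 2-fold counts and for genes outside the 9 was added after seeing the data. The limma, edgeR and DESeq2 fits were checked on simulated reads with known changes at d20. The other alternatives and the rule of alternating steps were not checked in this way. The members and lists were chosen with earlier results of these data known. Named genes were the members, up to 3 genes of each list with the largest difference at d20 in each direction, the 2 genes most like each member, and genes completing a count of 5 or fewer; some of these are not reported here. *TIMP3*, *VCAN*, *MKI67*, *TOP2A*, *ADAMTS3*, *ADAMTS4*, *ADAMTS13* and the overlapping genes were named after their values were seen.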

Additional observations from a re-analysis of the deposited data

Results flagged for a closer look

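Of 40 differences between neighbouring treated days (8 genes, 5 steps), 17 passed an adjusted p of 0.05 (limma) with at least a 2-fold change. As both days were set against the same d0, each is the difference between 2 changes from d0, in which treatment and time in culture cannot be told apart. All 17 were in *ADAM12*, *ADAM19*, *ADAMTS1*, *ADAMTS6* and *ADAMTS12*. How many of all genes tested passed this rule at these steps was not counted, so the 17 describe these genes only. *ADAM12* had 4, at -1.96 from d1 to d4, 1.95 from d7 to d10, -3.26 from d10 to d15 and 3.20 from d15 to d20 on the log2 scale. *ADAM19* had 3, at -1.21 from d4 to d7, 1.27 from d7 to d10 and -1.27 from d10 to d15. *ADAMTS1* had 4, at -1.02, 2.07, -2.04 and 1.94 from d4 to d20. *ADAMTS6* had 3, at 1.96, -2.62 and 2.34 from d7 to d20, and *ADAMTS12* had 3, at 1.46, -1.90 and 2.45 over the same steps. The steps into and out of d7 include the third listed d7 library, which stood apart.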

How the results depend on the processing

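No paired analysis was possible because replicate numbers are missing from the column headers, which the 3 libraries of a timepoint share. Over the 12 counts of genes higher or lower than at d0, 155 of 168 alternative values stayed within 1.5 times the count given. Equal library totals gave 2 genes lower (d4 and d7) or 1 (d1, d15 and d20), and shifted the median of all genes by -0.14 to -0.20. With them 26.7% to 39.1% of all calls were increases, against 51.1% to 54.6% as deposited and 41.9% to 47.7% with quantile normalization. The signs of small differences turned with equal totals: *ADAM9* to -0.076 at d4 and -0.082 at d7, *ADAM10* to -0.017 at d15, and *ADAM17* to -0.12 at d7, -0.14 at d15 and -0.16 at d20. *ADAM9* turned to 0.18 from d10 to d15 with quantile normalization. A 2-fold minimum gave 0 genes lower at d4 and d10 and 3 higher at d15. Leaving out a library gave 0 to 1 genes lower at d4 (0 without the first d0, the second d4 or the third d4 library) and 0 to 1 at d10 (0 without the first d0 or d10 library), and put the step of *ADAM12* from d4 to d7 between -0.58 (without the third d7 library) and 0.33. With a 2-fold minimum, leaving out a library gave 4 to 5 genes higher at d1, d4 and d7, 5 at d10 and d20, and 3 to 4 at d15. Of 624 alternative values of single genes against d0, 590 kept their direction and call, as did 497 of 520 between neighbouring days. Of the list counts at d20, equal totals moved other ADAM genes lower from 0 to 2 (1 with quantile normalization), partners of ADAM10 and ADAM17 higher from 5 to 3, EGF-like ligands lower from 1 to 3 and other shed proteins lower from 3 to 5. The cause of these shifts was not tested. At 8 to 27 reads a library in untreated cells, *ADAM12* and *ADAMTS12* limit what their calls at d15 can show.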
